A study of Mus musculus with 2 samples.

Results

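Ccl5, Cxcl9 and Cxcl10, chemokine genes whose proteins attract T cells, were followed in single endothelial cells (ECs) of tumours injected with a STING agonist. They were chosen by name and are 3 of the 17139 genes measured. The data are 2 droplet single-cell RNA-seq libraries of live CD31+ ECs, for which the study's sorting gate excluded CD45+ cells (leucocytes), sorted from subcutaneous Lewis lung carcinoma (LLC) tumours of adult male C57BL/6J mice. LLC is a transplantable mouse lung cancer cell line. The PBS library came from 1 tumour-bearing mouse after intratumoural (i.t.) injection of 70 μl of PBS, and the cGAMP library from 1 mouse given 14 μg of 3′3′-cGAMP in 70 μl of PBS, and both were sampled 24 h later. cGAMP is a cyclic dinucleotide that activates STING, the sensor protein encoded by Tmem173. The tumours were implants of 1 cell line, and ECs that had died or been lost by 24 h were not in the sort. With 1 library per condition there was no spread between mice and no test, so that the effect of the injection and any difference between the mice or the libraries cannot be told apart. Intervals given below are exact 95% intervals that cover counting error only.

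CCL5, also called RANTES, acts on T cells, macrophages, eosinophils and other leucocytes. CXCL9 and CXCL10 share the receptor CXCR3, which is found on activated T cells and natural killer (NK) cells. Transcription of Cxcl9 depends strongly on interferon-γ, while Cxcl10 also responds to type I interferon and to NF-κB, and Ccl5 is switched on by interferon regulatory factors together with NF-κB. On vessels, secreted chemokines are held on heparan sulphate and shown to passing leucocytes.

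All 3 genes lie on the minus strand in GRCm38 and are protein coding. Ccl5 (ENSMUSG00000035042.2) lies on chromosome 11 from 83525778 to 83530518. Cxcl9 (ENSMUSG00000029417.9) occupies bases 92321347 to 92328079 of chromosome 5, and Cxcl10 (ENSMUSG00000034855.13) bases 92346638 to 92348889 of the same chromosome, with 18.6 kb between them. Cxcl10 lies within the span of Art3, which is transcribed from the opposite strand and was at 4.38 CPM under PBS and 7.50 CPM under cGAMP. The RefSeq promoter windows of the members that have one are shown because Cxcl9 and Cxcl10 are neighbours whose levels differed in several of the comparisons below. Each window (GRCm38.p6) runs from 250 bases before to 50 bases after the start of the gene, in its own direction, and capitals mark every match to 5 motifs searched on both strands.
Cxcl9, chr5:92328030-92328329, minus strand: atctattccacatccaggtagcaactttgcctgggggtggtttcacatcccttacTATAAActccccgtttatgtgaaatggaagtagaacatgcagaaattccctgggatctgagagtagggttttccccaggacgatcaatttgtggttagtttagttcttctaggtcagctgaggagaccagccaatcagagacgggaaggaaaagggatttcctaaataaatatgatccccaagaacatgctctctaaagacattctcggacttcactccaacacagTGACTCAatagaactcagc
Cxcl10, chr5:92348840-92349139, minus strand: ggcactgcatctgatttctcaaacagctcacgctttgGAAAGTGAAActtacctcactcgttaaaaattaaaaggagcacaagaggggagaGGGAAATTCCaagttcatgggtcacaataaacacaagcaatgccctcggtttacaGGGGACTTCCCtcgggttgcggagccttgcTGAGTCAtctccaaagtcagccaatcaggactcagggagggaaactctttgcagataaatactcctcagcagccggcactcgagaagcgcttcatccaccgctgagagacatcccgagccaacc
The motifs were the interferon-stimulated response element (ISRE, a pair of GAAA runs with any 2 bases between them), the interferon-γ activated GAS element (TTCNNNGAA), the NF-κB consensus, TATAAA and the AP-1 site (TGANTCA). The Cxcl10 window held 1 ISRE match starting 213 bases before the gene's start, NF-κB matches starting 159, 104 and 103 bases before it, the last pair overlapping, and 1 AP-1 match 74 bases before it. The Cxcl9 window held neither an ISRE nor an NF-κB match, and had 1 TATAAA 195 bases before the start and 1 AP-1 match 31 bases after it. GAS was matched in neither. Only these letters were searched, so interferon or NF-κB elements of another form, or outside the windows, would be missed. A match, also that of TATAAA, gives letters only. Its function and any link to the levels were not tested. Of 32851 promoter windows in the same table, 3.44% held the ISRE letters, 8.30% GAS, 8.46% NF-κB, 13.6% TATAAA and 7.81% AP-1. Windows with both ISRE and NF-κB letters, as that of Cxcl10, made up 0.247% of all.

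The PBS library held 2517 cells with a median of 29780 UMIs (unique molecular identifiers, each standing for 1 captured transcript), and the cGAMP library 1340 cells with a median of 41178. The 3′ kit counts a transcript once whatever its length. The libraries shared 1 cell barcode. Median mitochondrial shares were 4.49% and 2.87% of UMIs. All 8 pan-endothelial markers were measured, their sum was 3899 and 3828 CPM (UMIs scaled to a library total of 1000000), and Cdh5 was detected in 99.6% and 99.7% of cells. Of 12 T or NK cell markers 6 had a row, and together they reached 0.923 CPM under PBS and 0.710 CPM under cGAMP. The 10 macrophage markers were at 16.3 and 36.6 CPM in sum and the 3 neutrophil markers with a row at 0.608 and 16.9 CPM, so that both lists were higher after cGAMP. In the cGAMP library Cd3d and Gzma were at 0, Trac was at 0.126 CPM and Cd4, the highest of the T or NK list, at 0.395 CPM. Gzmb had 0 UMIs under PBS and 5 under cGAMP. The pan-leucocyte marker Ptprc was at 0.250 CPM under PBS and 0.600 CPM under cGAMP.

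All 3 chemokines were higher in cGAMP-treated ECs, by very different amounts. Ccl5 had 596 UMIs, or 6.47 CPM (5.96 to 7.01), under PBS and 29213 UMIs, or 461 CPM (456 to 466), under cGAMP. Its level ranked 8844 among all genes under PBS and 295 under cGAMP. The fold was 71.2 (65.7 to 77.4). Cxcl9 had 11962 UMIs, 130 CPM (128 to 132), under PBS and 72941 UMIs, 1151 CPM (1143 to 1159), under cGAMP, a fold of 8.86 (8.69 to 9.03). Cxcl10 had 8528 UMIs, 92.6 CPM (90.7 to 94.6), and 15503 UMIs, 245 CPM (241 to 249), a fold of 2.64 (2.57 to 2.71). On the log2 scale the ratios were 6.15, 3.15 and 1.40. Among the 9509 genes that reached 5 CPM in one or both libraries, 173, or 1.82%, were at least 2-fold higher in the cGAMP library and 162, or 1.7%, at least 2-fold lower. By the size of the ratio Ccl5 was 1st, Cxcl9 place 16 and Cxcl10 place 106. The study itself had named these genes from these libraries, so their place in that order is a description and no independent evidence.

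The PBS level of Ccl5 rested on a handful of cells. Only 35 of 2517 PBS-treated ECs carried a Ccl5 UMI (1.39%, 0.970 to 1.93), and 14 of these had a single UMI. One cell alone held 273 Ccl5 UMIs, 45.8% of all in the library, and the cell with the second highest number held 114, or 19.1%. The first of them had 0 UMIs of 26 leucocyte markers. The 26 cells (1%) with the most Ccl5 UMIs held 98.5% of them. Without the cell with the most UMIs in each library the level was 3.51 CPM against 445 CPM and the log2 ratio 6.99. Without the top 1% of cells it was 0.0991 CPM against 337 CPM, a log2 ratio of 11.73. The fold of Ccl5 thus depended on how many of these rare PBS cells were counted, and the cGAMP level was higher in each of the versions given here.

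In the cGAMP library Ccl5 was spread over many more cells. A UMI was found in 735 of 1340 cells (54.9%, 52.1 to 57.5). The level was above 5 UMIs per 10000 in 181 cells, between 1 and 5 in 155 and up to 1 in 399, against 4, 8 and 23 of the PBS cells. The most in one cell was 1012 UMIs. The top 1% of cells, 14 in number, held 31.2% of Ccl5 UMIs and the top 10% held 87.3%, so that Ccl5 remained concentrated in a minority of cGAMP-treated ECs.

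Cxcl9 was the most widespread of the 3. It was detected in 506 PBS-treated ECs (20.1%, 18.6 to 21.7) and in 1117 cGAMP-treated ECs (83.4%, 81.3 to 85.3). Of these, 125 and 583 cells were above 5 UMIs per 10000. In cells with a UMI the median level was 0.674 per 10000 under PBS and 5.65 per 10000 under cGAMP. The top 1% of cells held 49.9% of Cxcl9 UMIs under PBS and 12.2% under cGAMP. Both the share of cells and the level within positive cells were thus higher after cGAMP.

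Cxcl10 was detected in 394 PBS-treated ECs (15.7%, 14.3 to 17.1) and 736 cGAMP-treated ECs (54.9%, 52.2 to 57.6). Its highest cells were alike in both libraries, with up to 765 UMIs in a PBS cell and 711 in a cGAMP cell, or 180 and 158 UMIs per 10000 in the cells with the highest levels. The top 1% of cells held 64.8% of its UMIs under PBS and 31.5% under cGAMP. Leaving them out gave 42.6 against 176 CPM, a log2 ratio of 2.05. The ratio was smaller in cells with no UMI of any of the 26 leucocyte markers (137 against 205 CPM, log2 ratio 0.58, 1082 and 218 cells). These cells are also shallower, with medians of 21823 and 23852 UMIs, and 3 of the markers, Lyz2, Cd68 and Zbtb46, were each held by over 10% of the PBS cells. Without those 3 markers the filter kept 2022 and 580 cells, and the log2 ratio of Cxcl10 was 0.73. The same filter gave 6.21 for Ccl5 and 2.90 for Cxcl9, and the full filter 4.82 and 2.93. The sort had gated out CD45+ cells, and the part of leucocyte RNA in these ratios was not tested beyond the filters.

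**Figure D1:**
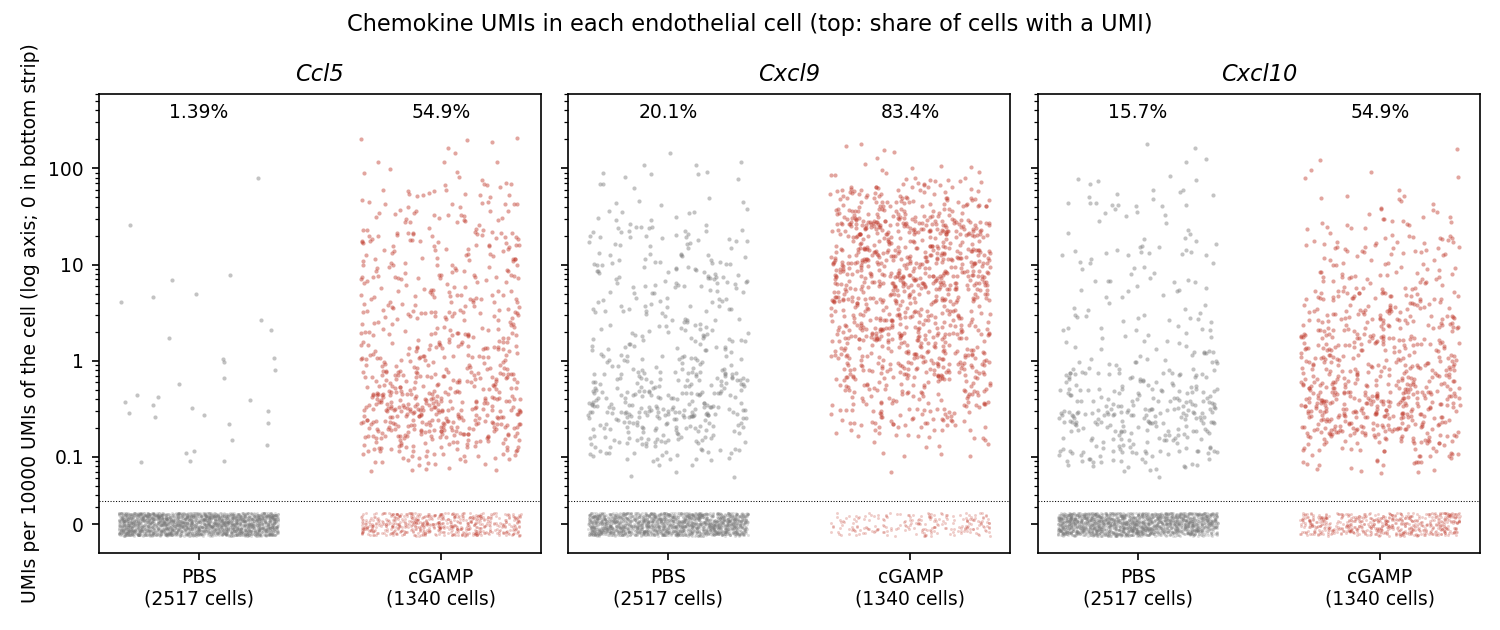
UMIs of each chemokine per 10000 UMIs of the cell (log axis, cells at 0 in the strip below the line), 1 point per EC, in the PBS (2517 cells) and cGAMP (1340 cells) libraries. The share of cells with a UMI stands on top, from 1.39% to 54.9% for Ccl5, and the highest Cxcl10 cells reach about the same level in both libraries.

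To compare shares at one depth, each cell was thinned to 5000 UMIs, which left out 70 PBS and 13 cGAMP cells. Ccl5 was then detected in 10 of 2447 PBS-treated ECs, 0.409% (0.196 to 0.750), and 349 of 1327 cGAMP-treated ECs, 26.3% (23.9 to 28.8). The shares were 8.91% (7.81 to 10.1) and 62.9% (60.3 to 65.5) for Cxcl9, and 5.88% (4.99 to 6.89) and 26.0% (23.7 to 28.4) for Cxcl10. The intervals of the libraries do not overlap for any of the 3. No cell type that lacks these genes is in the files, so a background share from free RNA could not be read from one. Markers that ECs should lack gave 2.70% and 5.65% for Lyz2, 0.45% and 2.11% for C1qb, a macrophage complement gene, and 0.163% and 1.51% for S100a9, a neutrophil gene. The cGAMP shares of the 3 chemokines were above all of these. The PBS share of Ccl5 was below those of Lyz2 and C1qb, so that cells there with single Ccl5 UMIs cannot be told apart from background, unlike the cell with 273. Before thinning, a UMI of a T or NK marker was held by 16 (2.18%) of the 735 cGAMP-treated ECs with Ccl5 and 9 (1.49%) of those without it. For Cxcl9 these were 24 cells (2.15%) and 1 cell (0.448%), and for Cxcl10 17 (2.31%) and 8 (1.32%). In the PBS library the shares were 8.57% (3 of 35 cells) and 2.70% for Ccl5, 4.15% and 2.44% for Cxcl9 and 2.79% and 2.78% for Cxcl10. The shares were thus higher in cells with Ccl5 or Cxcl9 than in cells without, and in the cGAMP library also for Cxcl10, on counts of a few cells. Depth was not held equal in these unthinned cells, and the part of T or NK cell RNA was not tested.

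The clusters of ECs were rebuilt without the 3 members, all other chemokine genes and the genes that differed at least 2-fold between the libraries. Of 8 clusters, 1 was stalk-like (cluster 1, led by Ackr1 and Selp, 364 PBS and 358 cGAMP cells), 2 were proliferative-like (cluster 2, led by histone genes, and cluster 5, led by Cenpf and Ube2c), 1 was arterial-like (cluster 3, led by Gja4 and Nts), and 2 were tip-like (cluster 4, led by Gal and Chga, and cluster 6, led by Ankrd1 and Pgf). Cluster 4 also had the interferon-induced gene Rsad2 and the chemokine gene Ccl2 among its 10 leading genes. Clusters 0 (Ramp3, Esm1) and 7 (Igfbp5, Ctsh, 45 PBS and 51 cGAMP cells) had no name by the marker rule. In cluster 7 all 15 stalk markers were raised at least 2-fold, against 10 in cluster 1, but none was among its 10 leading genes. Levels in cluster 1 therefore do not stand for all ECs with raised stalk markers. Levels in clusters are given as a description.

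In PBS-treated ECs the tip-like cluster 4 stood above the other clusters for Cxcl9 and Cxcl10. Cxcl9 was at 328 CPM (319 to 337) there and between 0.967 CPM in cluster 7 and 122 CPM in cluster 2 elsewhere. Cxcl10 was at 309 CPM (300 to 318) in cluster 4, at 111 CPM (106 to 116) in cluster 2 and from 4.83 to 55.6 CPM in the others. One cell with 765 Cxcl10 UMIs made up much of cluster 2, which was at 68.3 CPM without it. Cluster 4 was at 295 CPM for Cxcl9 and 288 CPM for Cxcl10 without its top cell for each gene. Cluster 4 held 38.8% of the Cxcl9 UMIs and 51.2% of the Cxcl10 UMIs of the library, in 372 of its 2517 cells. In thinned cells 19.0% of cluster 4 had a Cxcl9 UMI and 11.96% a Cxcl10 UMI. Much of this rested on few cells. At a finer resolution of 0.8, where 43 PBS cells led by interferon-induced genes formed a cluster of their own, the tip-like cluster led by Gal and Chga (344 PBS cells) was at 183 CPM for Cxcl9 and 58.5 CPM for Cxcl10, with 3.81% of thinned cells positive for Cxcl10. Its Cxcl10 level was then below the 146 CPM of a proliferative-like cluster. For Cxcl9 the PBS levels of clusters 0 and 1, 106 CPM (102 to 110) and 112 CPM (106 to 119), had overlapping intervals, and were 97.9 and 73.4 CPM without the top cell of each.

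Ccl5 in PBS-treated ECs seemed highest in the stalk-like cluster 1, at 28.6 CPM (25.4 to 32.0), which held 48.8% of its UMIs. That level came from 1 cell. Without it cluster 1 had 18 Ccl5 UMIs, or 1.77 CPM, and only 0.282% of its thinned cells had one. The other PBS clusters ran from 0 UMIs in cluster 5, which allows up to 0.339 CPM, to 12.7 CPM in cluster 3, where 1 cell held 92.7% of the Ccl5 UMIs. With so few cells no order of the PBS clusters can be read for Ccl5.

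After cGAMP the order of the clusters was different for each gene. Ccl5 was highest in the tip-like cluster 6, at 1338 CPM (1295 to 1382), in the unnamed cluster 7, at 1231 CPM (1174 to 1290), and in the tip-like cluster 4, at 1005 CPM (980 to 1032). The place of cluster 7 rested on 1 cell, which held 1012 of its 1745 Ccl5 UMIs. Ccl5 followed in the arterial-like cluster 3, at 567 CPM (549 to 585), the stalk-like cluster 1, at 427 CPM (417 to 437), and cluster 0, at 359 CPM (349 to 369). The proliferative-like clusters were lowest, cluster 5 at 246 CPM (232 to 261) and cluster 2 at 90.6 CPM (85.3 to 96.2), and adjacent intervals in this order do not overlap. Leaving out the cell with the most Ccl5 UMIs in each cluster, a check chosen after seeing the data, gave 1016 CPM (979 to 1055) in cluster 6, 864 CPM (840 to 889) in cluster 4, 537 CPM (499 to 578) in cluster 7 and 509 CPM (492 to 526) in cluster 3. Clusters 7 and 3 then did not differ beyond counting error, and cluster 5 was at 135 CPM, as 1 cell held 46.5% of its Ccl5 UMIs. The share of thinned cells gave a looser order, from 15.3% (10.9 to 20.7) in cluster 2 to 41.3% (29.0 to 54.4) in cluster 6, with intervals that overlap between most neighbours.

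Cxcl9 was highest after cGAMP in the stalk-like cluster 1, at 1842 CPM (1822 to 1863), which held 42.5% of its UMIs, and then in the tip-like clusters 4 and 6, at 1536 CPM (1504 to 1568) and 1237 CPM (1195 to 1279). The arterial-like cluster 3 was at 1040 CPM (1016 to 1065), cluster 0 at 701 CPM (687 to 715) and the proliferative-like clusters 2 and 5 at 857 and 575 CPM. One cell held 722, or 21.4%, of the Cxcl9 UMIs of cluster 6. Without the top cell of each, clusters 6 and 3 were at 1002 CPM (964 to 1041) and 984 CPM (961 to 1009). Their intervals then overlapped. Cluster 7 had the lowest Cxcl9, 331 CPM (302 to 363), or 249 CPM without its top cell, and 25.5% (14.3 to 39.6) of its thinned cells had a Cxcl9 UMI against 75.3% (70.5 to 79.7) of cluster 1.

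Cxcl10 after cGAMP was at 423 CPM (413 to 433) in the stalk-like cluster 1 and 413 CPM (396 to 429) in the tip-like cluster 4, which did not differ beyond counting error. Without the top cell of each they were at 403 CPM (393 to 412) and 329 CPM (315 to 344). The proliferative-like cluster 2 followed at 283 CPM (274 to 293), or 224 CPM without its top cell of 711 UMIs, and the lowest was again cluster 7, at 47.2 CPM (36.6 to 60.0). Cluster 1 held 45.9% of the Cxcl10 UMIs of the library, and 40.2% (35.04 to 45.5) of its thinned cells had one, against 22.9% (15.8 to 31.4) in cluster 4.

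**Figure D2:**
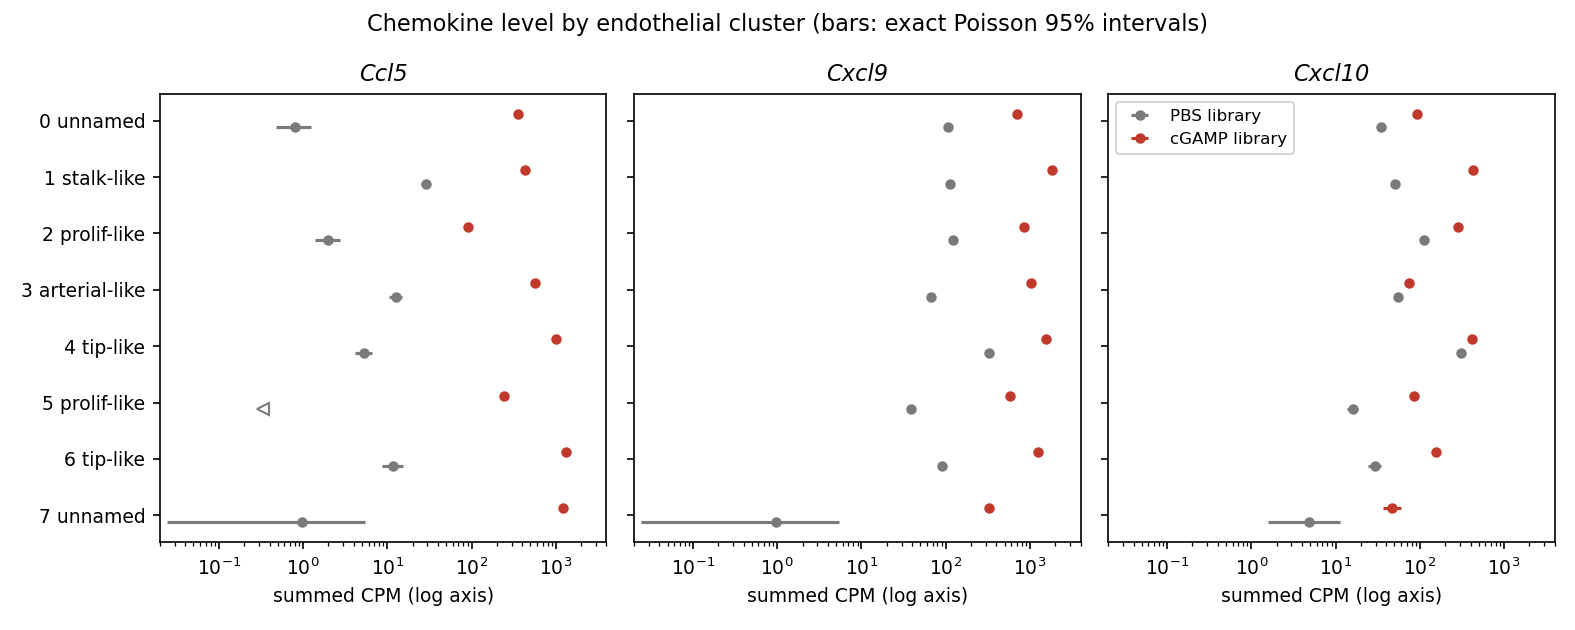
Summed CPM of each chemokine (log axis) in the 8 EC clusters of the PBS and cGAMP libraries, with exact Poisson 95% intervals. The open triangle is the upper limit of Ccl5 in cluster 5 of the PBS library, which had 0 UMIs, and the Cxcl10 points of clusters 3 and 4 lie close together while those of cluster 1 lie far apart.

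The ratio between the libraries therefore differed among clusters, as seen in the plot of levels by cluster. For Cxcl10 the log2 ratio was 0.41 (0.23 to 0.59) in the arterial-like cluster 3 and 0.42 (0.35 to 0.49) in the tip-like cluster 4, against 3.07 (2.94 to 3.20) in the stalk-like cluster 1. Cluster 4 was already high in the PBS library, and the stalk-like cluster was not. Without the top cell of each library in the cluster the log2 ratios of Cxcl10 were 0.91 (0.70 to 1.12) in cluster 3, 0.19 (0.11 to 0.27) in cluster 4 and 3.35 (3.20 to 3.50) in cluster 1. In cluster 2 the log2 ratio of Cxcl10 was 1.35, and 1.72 (1.62 to 1.82) without the PBS cell of 765 UMIs and the cGAMP cell of 711. For Cxcl9 the log2 ratio was also smallest in cluster 4, at 2.23 (2.18 to 2.28), and was 4.03 (3.95 to 4.12) in cluster 1 and 3.97 (3.85 to 4.09) in cluster 3. For Ccl5 it was 7.57 (7.24 to 7.92) in cluster 4, 6.85 (6.46 to 7.28) in cluster 6 and 5.49 (5.23 to 5.76) in cluster 3. In cluster 1 it was 3.90 with the PBS cell of 273 UMIs. Because single cells set the PBS levels of Ccl5, leaving out the top cell of each library moved its log2 ratio to 7.77 (7.11 to 8.52) in cluster 1, 9.10 (8.17 to 10.23) in cluster 3, 7.99 (7.58 to 8.43) in cluster 4 and 12.12 (9.64 to 17.43) in cluster 6, where 1 PBS UMI remained. No order of the clusters by the Ccl5 ratio can therefore be read. In cluster 5, with 0 PBS UMIs, Ccl5 was higher by a log2 ratio of at least 9.80, set against a floor of 3 counts. In cluster 7 the PBS cells held 1 UMI each of Ccl5 and Cxcl9, and the log2 ratios were 10.31 (7.83 to 15.62) and 8.42 (5.94 to 13.73). Without the top cell of each library they were 7.48 and 6.41 by the same floor, with lower limits of 7.18 and 6.10.

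A finer clustering set apart a small group of cells that held much of the PBS Cxcl10. At a Louvain resolution of 0.8, with the same chemokine genes left out, 43 PBS and 24 cGAMP cells formed a cluster led by Rsad2, Cxcl10, Ifit2 and Cmpk2. In the PBS library these 43 cells held 44.2% of the Cxcl10 UMIs, 21.6% of the Cxcl9 UMIs and 5.54% of the Ccl5 UMIs. Cxcl10 was at 2695 CPM in the PBS cells and 2485 CPM in the cGAMP cells of the cluster, Cxcl9 at 1847 and 4368 CPM, and Ccl5 at 23.6 and 2596 CPM. In this group Cxcl10 was thus not higher in the cGAMP library, with a log2 ratio of -0.12, while Ccl5 had a log2 ratio of 6.78. Interferon-induced genes that differed less than 2-fold between the libraries, such as Rsad2, were not left out of the clustering, so the high Cxcl10 of this group is a description. With all 2500 variable genes used, the chemokine genes and the genes that differed at least 2-fold were not left out. Cells led by Cxcl10 and Ifit2 then formed a cluster of 96 cells from each library, with Cxcl10 at 1502 and 1364 CPM. The log2 ratio of Cxcl10 in the remaining tip-like ECs was 2.75 in place of 0.45, and at the finer resolution it was 1.36. In the run with all variable genes Cxcl10 could itself shape the grouping, so its values there are no independent evidence.

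Most PBS-treated ECs had none of the 3 chemokines, and most cGAMP-treated ECs had at least 1. In thinned cells none of the 3 was found in 87.8% (86.5 to 89.1) of PBS cells and 26.7% (24.3 to 29.1) of cGAMP cells. All 3 together were found in 3 PBS cells, 0.123% (0.0253 to 0.358), and 99 cGAMP cells, 7.46% (6.10 to 9.01). The commonest state among positive thinned cells was Cxcl9 alone, in 6.05% of PBS cells and 29.8% of cGAMP cells. Cxcl9 with Cxcl10 was found in 2.53% and 13.5%, and Cxcl9 with Ccl5 in 0.204% and 12.2%. Ccl5 with Cxcl10 but without Cxcl9 was rare in both, at 0.0409% and 1.28%. At this depth Cxcl10 alone was about as frequent in either library, at 3.19% (2.53 to 3.96) and 3.77% (2.81 to 4.94). Among cells with any of the 3, Cxcl9 had the most UMIs in 57.7% of PBS cells and 67.8% of cGAMP cells, Cxcl10 in 38.3% and 9.76%, and Ccl5 in 1.01% and 18.2%. The combinations depended on depth. Without thinning, all 3 together was the commonest state of the cGAMP library, at 32.2% (29.7 to 34.7), above Cxcl9 alone at 15.7%. Cxcl10 alone was then at 8.78% (7.70 to 9.95) in the PBS library and 2.84% (2.01 to 3.87) in the cGAMP library.

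**Figure D3:**
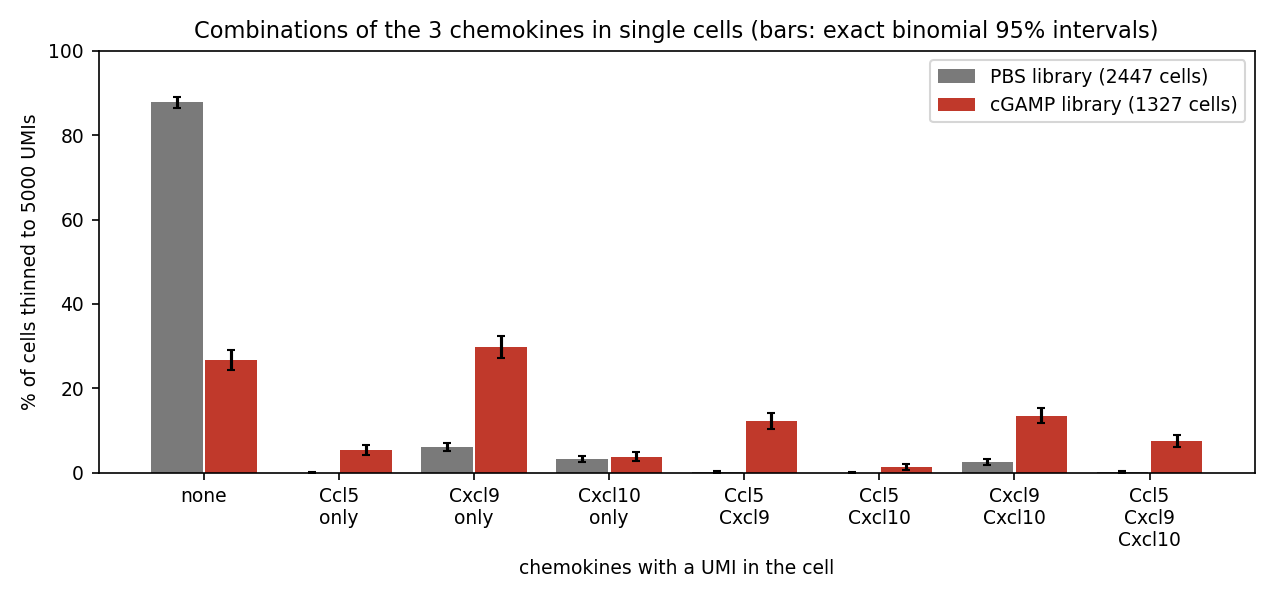
Share of cells, thinned to 5000 UMIs, with each combination of the 3 chemokines in the PBS (2447 cells) and cGAMP (1327 cells) libraries, with exact binomial 95% intervals. Cells with none make up 87.8% of one library and 26.7% of the other, and Cxcl10 alone has overlapping intervals.

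Within each library a cell with one of the chemokines had the others more often. In the PBS library Cxcl9 was found in 45.1% (36.8 to 53.6) of cells with Cxcl10 and 6.64% (5.66 to 7.74) of cells without it. In the cGAMP library these shares were 80.6% (76.0 to 84.6) and 56.7% (53.6 to 59.8). Of the 10 PBS cells with Ccl5, 8 had Cxcl9. In the cGAMP library Ccl5 was found in 31.3% (28.1 to 34.5) of cells with Cxcl9 and 17.9% (14.6 to 21.6) of cells without it, and in 33.6% (28.7 to 38.9) of cells with Cxcl10 and 23.7% (21.1 to 26.5) of cells without it. Pearson's r of the thinned values, on a log(1 + UMIs) scale, was 0.50 under PBS and 0.35 under cGAMP for Cxcl9 and Cxcl10, 0.18 and 0.20 for Ccl5 and Cxcl9, and 0.08 and 0.11 for Ccl5 and Cxcl10, over 2447 and 1327 cells that share a library and a depth. The pairs with Ccl5 had the lower r in both libraries.

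The coupling of Ccl5 and Cxcl9 was not alike in all clusters. In the tip-like cluster 4 of the cGAMP library 37 of 39 cells with Ccl5 had Cxcl9 (94.9%) against 45 of 83 cells without Ccl5 (54.2%), and r was 0.43. In the stalk-like cluster 1 the shares were 77.1% and 74.5%, and r was 0.06. In cluster 7 Ccl5 was found without the others in 21.6% of cells, and r was -0.02. All 3 chemokines were found together in 13.1% of the cells of cluster 4 and 12.4% of those of cluster 1, against 3.15% in the proliferative-like cluster 2 and 3.53% in cluster 0.

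The share of cells with each chemokine was set beside 3 lists of genes that contain no chemokine, by splitting the cells of each library into tertiles by the summed UMIs of a list. The antiviral list (15 genes with a row, such as Isg15 and Ifit1) is known for induction by type I interferon, the interferon-γ associated list (16 genes, such as Gbp2 and Iigp1, some of which type I interferon also induces) for induction by interferon-γ, and the last list (16 genes, such as Nfkbia and Tnfaip3) holds NF-κB targets. In the cGAMP library Cxcl9 was found in 39.3% of cells in the low, 64.5% in the middle and 85.1% in the high tertile of the interferon-γ associated list. Cxcl10 was found in 11.3%, 20.6% and 46.2%, and Ccl5 in 18.3%, 27.8% and 32.8%. Over the tertiles of the antiviral list Ccl5 was found in 18.1%, 22.9% and 38.01%, Cxcl9 in 48.5%, 61.1% and 79.2%, and Cxcl10 in 13.3%, 19.0% and 45.7%. The span was narrower over the NF-κB list, with 23.0%, 27.4% and 28.5% for Ccl5, whose outer intervals overlap (19.2 to 27.2 and 24.3 to 32.96), and 17.2%, 23.98% and 36.9% for Cxcl10. For Cxcl9 it was 57.3%, 63.8% and 67.6%. Abundant genes weigh most in such sums. In the cGAMP library Nfkbia was at 1293 CPM and the next NF-κB target, Icam1, at 200 CPM. In the antiviral list Isg15 was at 814 CPM and Rsad2, the next, at 172 CPM. The narrower span therefore cannot be read as a trait of all 16 NF-κB targets.

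The same order held in PBS-treated ECs for Cxcl9 and Cxcl10. Cxcl9 was found in 2.57%, 4.90% and 19.3% of cells over the interferon-γ associated tertiles and Cxcl10 in 1.59%, 2.08% and 13.99%. Ccl5, with 10 positive cells, gave shares of 0.123% to 0.736% from which no order can be read. Within cluster 0 of the cGAMP library alone, with 85 cells in each tertile, Ccl5 was found in 11.8%, 15.3% and 43.5% of cells over the antiviral tertiles, Cxcl9 in 45.9%, 42.4% and 62.4% and Cxcl10 in 10.6%, 14.1% and 23.5%. Over the interferon-γ associated tertiles the shares were 15.3%, 23.5% and 31.8% for Ccl5, 32.9%, 45.9% and 71.8% for Cxcl9 and 9.41%, 9.41% and 29.4% for Cxcl10. Over these lists the high tertile had the highest share each time, while the low and middle tertiles were not always in order. Over the NF-κB tertiles of cluster 0 the shares were 21.2%, 24.7% and 24.7% for Ccl5 and 44.7%, 52.9% and 52.9% for Cxcl9. For Cxcl10 they were 11.8%, 9.41% and 27.1%. Scores are whole UMI sums, and cells with the same sum at a border fell in either tertile.

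**Figure D4:**
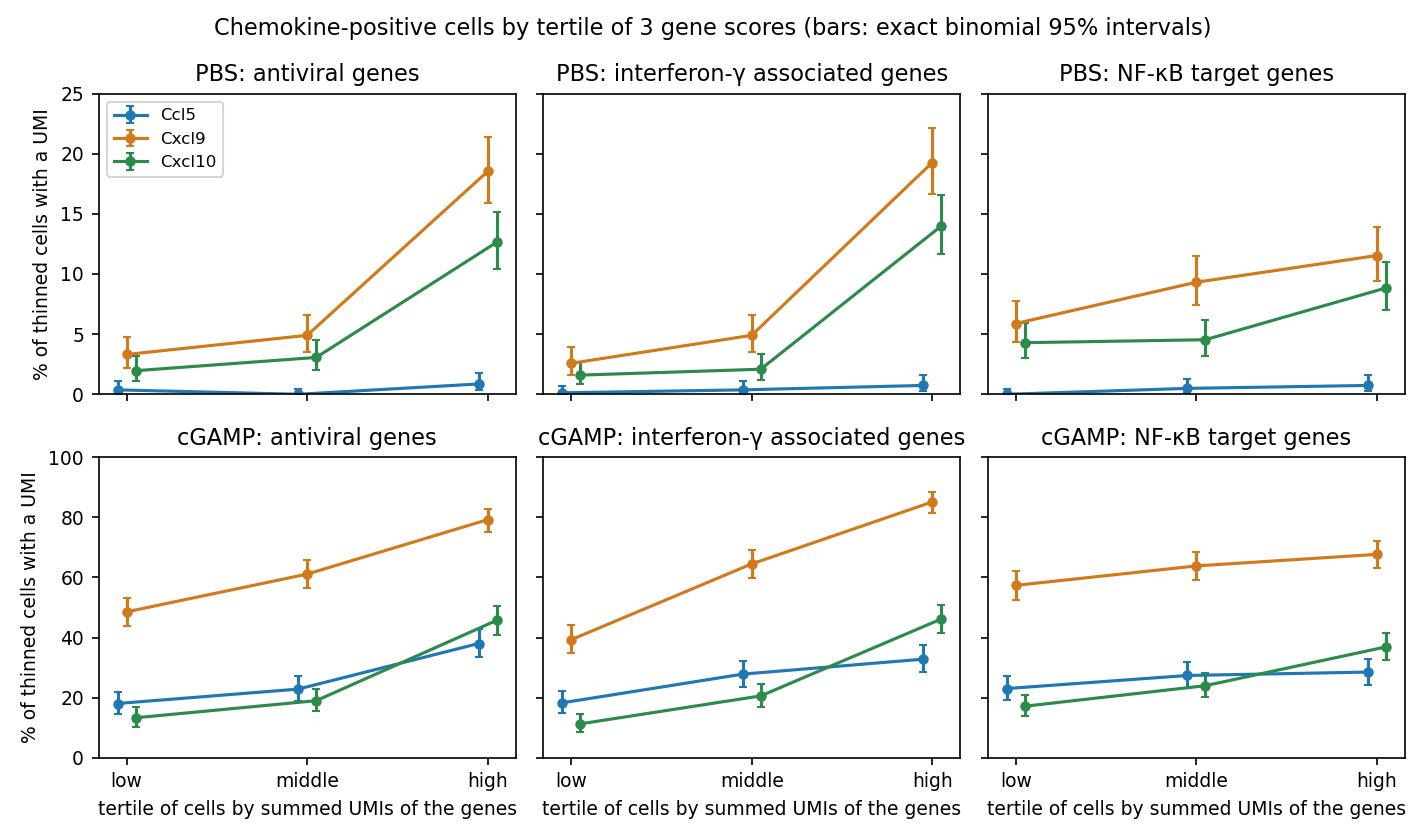
Share of thinned cells with a UMI of each chemokine in the low, middle and high tertile of cells by the summed UMIs of antiviral, interferon-γ associated and NF-κB target genes, in the PBS library (upper row, axis to 25%) and the cGAMP library (lower row, axis to 100%), with exact binomial 95% intervals. In the cGAMP library Cxcl9 goes from 39.3% to 85.1% over the interferon-γ associated tertiles and Ccl5 from 18.1% to 38.01% over the antiviral tertiles.

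The genes whose level was most like that of each member were found over 16 profiles, the 8 clusters in each of 2 libraries, among 6042 genes that reached 20 CPM in one or both libraries. Ccl5 was most like the class I antigen presentation genes H2-K1 and B2m (both r = 0.95), H2-D1 and H2-Q4 (both 0.94) and the lysosomal gene Npc2 (0.94). Cxcl9 was most like the interferon-induced Bst2 (r = 0.95), Isg15, Irf7 (both 0.94) and Zbp1 (0.93), and Ctla2b (0.93). Cxcl10 was most like Eif2ak2 (r = 0.86), Lap3, Trafd1, Cd274, which encodes PD-L1, and Tcirg1 (each 0.84). Across single cells of the cGAMP library, 1327 points of 1 library, the highest r was with Npc2 for Ccl5 (0.30), followed by Ifitm3, Rsad2, Nupr1 and H2-K1 (0.26 to 0.23). For Cxcl9 it was with Ubd, a ubiquitin-like gene (0.52), followed by Gbp2 (0.49), Ifitm3, B2m and Bst2. For Cxcl10 it was with Iigp1 (0.42), followed by Gbp5, Ubd, Ifit3 and Irf1 (0.38 to 0.35). The profiles share libraries and the cells share 1 library, so these values are a description.

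Of 24 other chemokine genes in the files, 9 reached 5 CPM in one or both libraries. Among these 9 Ccl4 and Cxcl16 had the largest ratios between the libraries, and the rest were within 2-fold apart from Ccl21a. Ccl4, which encodes MIP-1β, was at 0.326 and 5.55 CPM, a log2 ratio of 4.09 (3.55 to 4.68), and Cxcl16, the ligand of CXCR6, at 1.67 and 7.07 CPM, a log2 ratio of 2.08 (1.81 to 2.35). Cx3cl1, or fractalkine, was at 7.05 and 13.8 CPM (log2 ratio 0.97), and the neutrophil chemokine genes Cxcl2 and Cxcl1 had log2 ratios of 0.93 and 0.49. The monocyte chemokine gene Ccl2, already at 202 CPM in the PBS library, reached 249 CPM, a log2 ratio of 0.31, about as small as that of Cxcl12, 0.32. Ccl25 was at 9.56 and 8.35 CPM. Ccl21a, a lymphatic endothelial chemokine gene, had 493 UMIs under PBS and 0 under cGAMP. Its log2 ratio was -6.82 by a floor of 3 counts, with an upper limit of -6.52. Its PBS UMIs were held by only 0.358% of the cells. A lower level thus cannot be told apart from such rare cells not having been sampled in the cGAMP library. Of the 9 genes 2 were at least 2-fold higher and 1, Ccl21a, at least 2-fold lower, against 1.82% and 1.7% of the 9509 genes. Their median log2 ratio was 0.49, against -0.08 over the 9509 genes. Below 5 CPM, in genes named after their values were seen, Ccl8 went from 16 to 213 UMIs (0.174 and 3.36 CPM), a log2 ratio of 4.27 (3.54 to 5.11), and Ccl3 from 32 to 217 UMIs (0.348 and 3.42 CPM), a log2 ratio of 3.30 (2.76 to 3.88). Ccl12, Ccl9 and Ccl7 had log2 ratios of 2.54, 2.42 and 1.73. In thinned cGAMP cells Ccl4 was found in 1.51%, Ccl8 in 1.73%, Ccl3 in 0.754%, Ccl12 in 0.98%, Ccl9 in 1.43% and Ccl7 in 1.58%. In that library the shares of the 10 macrophage markers ran from 0% for Adgre1 and Mrc1 to 5.65% for Lyz2. Between them lay C1qc at 1.06% and C1qb at 2.11%. Cxcl16, at 2.86%, and the genes above lay within this range, higher than some of the markers and lower than others. Background RNA of other cells therefore cannot be told apart as their source, and the part of leucocyte RNA was not tested.

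**Figure D5:**
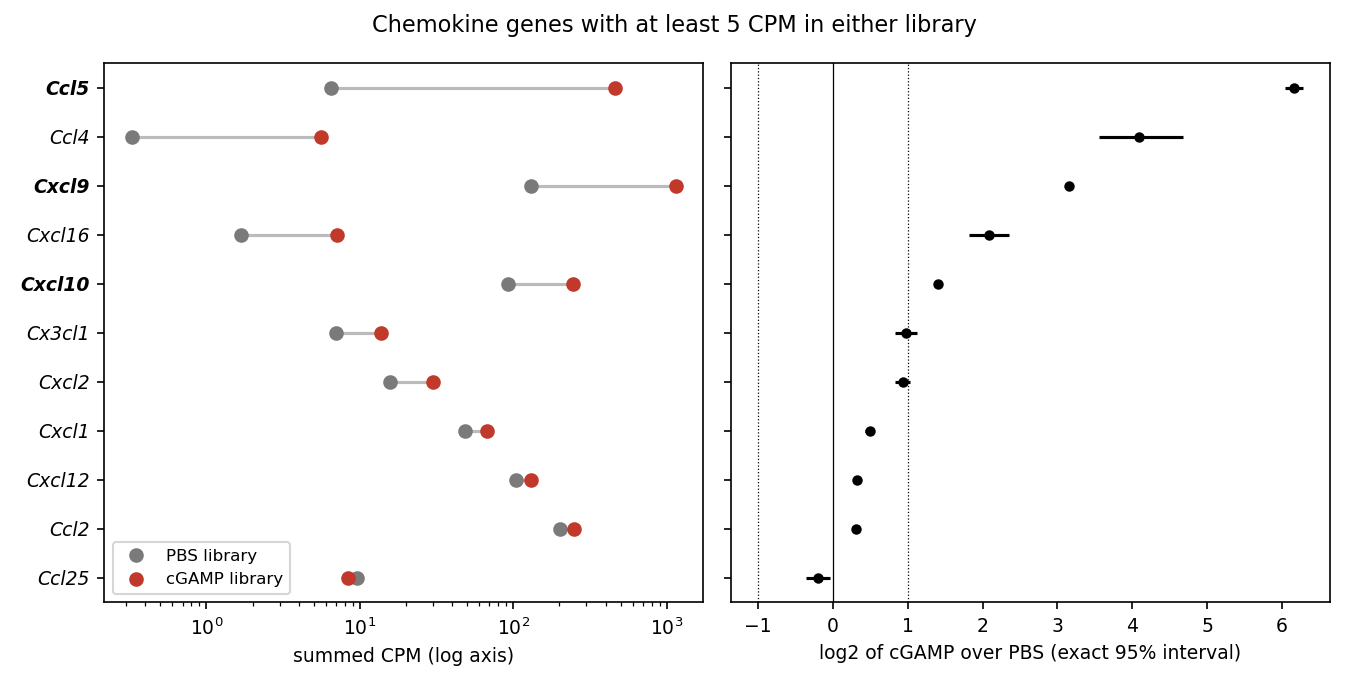
Left, summed CPM (log axis) in the PBS and cGAMP libraries, and right, log2 ratio with its exact 95% interval, of the 3 members (bold) and 8 other chemokine genes that reached 5 CPM, Ccl21a left out for its 0 UMIs in the cGAMP library. Dotted lines mark 2-fold, and Ccl5 stands highest at 6.15.

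Genes of the same pathway were measured beside the members. The receptor genes Cxcr3 and Ccr1 were nearly absent from the ECs, with Cxcr3 at 0.271 and 0.395 CPM and Ccr1 at 0.228 and 0.505 CPM. Ackr1, the atypical receptor on venules that binds CCL5 and other chemokines without signalling, was at 39.5 and 171 CPM, a log2 ratio of 2.11 (2.06 to 2.17), and was the 1 of 7 receptor and inactivator genes to reach 5 CPM. Of 12 genes that reached 5 CPM for heparan sulphate synthesis and its core proteins none was at least 2-fold higher and 1, the syndecan gene Sdc4, was at least 2-fold lower (11.3 to 4.92 CPM, log2 ratio -1.20). The main core protein gene Hspg2, or perlecan, was at 501 and 321 CPM, a log2 ratio of -0.64, and the largest ratio was that of the sulphotransferase gene Hs3st1, 0.54. The median of the list was -0.27. Over all 9509 genes 1.82% were at least 2-fold higher and 1.7% at least 2-fold lower.

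Of 21 genes for receptors and factors upstream of the chemokines, 2 were at least 2-fold higher and none at least 2-fold lower. They were the transcription factor gene Irf7, at 82.7 and 651 CPM (log2 ratio 2.98), and Socs1, an inhibitor of interferon signalling, at 6.64 and 17.7 CPM (1.42). Stat2, Irf1 and Irf9 had log2 ratios of 0.66, 0.73 and 0.63. The lowest was the type I interferon receptor gene Ifnar1, at 56.0 and 34.1 CPM (-0.72), and Tmem173 was at 98.0 and 113 CPM (0.20). The median over the 21 genes was 0.20. The shares over all 9509 genes were 1.82% at least 2-fold higher and 1.7% at least 2-fold lower.

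The lists used for the scores were themselves higher in the cGAMP library to unequal degrees. For comparison, 1.82% of all 9509 genes were at least 2-fold higher. Of 14 antiviral genes that reached 5 CPM 9 were at least 2-fold higher, with a median log2 ratio of 1.34 and a range from 0.13 for Cmpk2 to 2.12 for Oas2. Of 12 interferon-γ associated genes that reached it 11 were at least 2-fold higher, with a median of 1.44, from 0.73 for Irf1 to 2.33 for Cd74, the invariant chain of class II presentation. Of 15 such NF-κB targets 2 were at least 2-fold higher, the cytokine genes Csf3 (4.12 and 76.9 CPM, log2 ratio 4.22) and Il6 (32.9 and 92.8 CPM, 1.50), and the median was 0.34. The largest ratio of the 14 antiviral genes, 2.12, was thus below that of Cxcl9, while Cxcl10, at 1.40, lay near the medians of both interferon lists.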

How the data were processed

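The authors aligned reads to mm10 with Cell Ranger 3.0.0, filtered cells (at least 500 genes, at most 10% mitochondrial UMIs) and genes (3 cells) with Seurat 3.1.1, removed Pecam1- clusters and deposited natural log values, ln(1 + UMIs per 10000). UMI counts were recovered from the steps, and 100% of values were whole within 0.01. UMIs were summed per library and scaled to CPM, with exact Poisson, conditional binomial and Clopper-Pearson intervals (scipy 1.17.1). No test was possible with 1 library per condition. Positions come from GENCODE on GRCm38 and promoters from RefSeq. The labels name kit v2 and the methods v3. Sampling at 24 h follows the methods.

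Clusters were made with Seurat 5.3.0 (anchors, 30 components, resolution 0.5, 1789 of 2500 variable genes). A name needed 3 markers raised 2-fold (5 CPM added) and 1 among the top 10 genes. It was withheld where another class had more raised markers, a condition added on seeing cluster 7 (15 stalk and 3 arterial markers). No doublet caller was run. Named genes were the members, chemokine genes with at least 5 CPM, and genes of the pathway lists at least 5 CPM and past 2-fold or extreme. The members and lists were chosen with earlier results of these data known. The ratio and thinning code was tested on simulated data.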

Additional observations from a re-analysis of the deposited data

How the results depend on the processing

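None of these alternatives reversed a ratio between the libraries. With cluster proportions held equal the log2 ratio of Ccl5 was 5.80, and with at most 5% mitochondrial UMIs the ratios of Ccl5, Cxcl9 and Cxcl10 were 5.84, 2.91 and 1.21. Leaving out cells with any leucocyte marker UMI gave 4.82, 2.93 and 0.58, and leaving out the top 1% of cells gave 11.73, 3.85 and 2.05. Averaging CPM over cells gave 3.09 for Cxcl9 and 1.21 for Cxcl10, median-of-ratios scaling 3.22 and 1.47, and thinning before summing 1.28 for Cxcl10. Of the alternatives chosen after seeing the data, leaving out cells with a rare leucocyte marker gave 2.90 and 0.73, leaving out the cell with the most UMIs 6.99, 3.19 and 1.47, and leaving out the 5% of cells with the most UMIs 3.08 for Cxcl9. Where none is given, the value stayed within its counting interval.

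Shares of positive cells moved with depth. For Ccl5, Cxcl9 and Cxcl10 in that order, the cGAMP shares were 19.2%, 51.3% and 16.2% at 2000 UMIs, 33.2%, 71.5% and 34.0% at 10000 UMIs, 54.9%, 83.4% and 54.9% unthinned, and 16.2%, 49.8% and 14.5% with at least 2 UMIs. The PBS shares were 6.71% and 4.35% (Cxcl9, Cxcl10) at 2000, 0.814%, 12.2% and 8.91% at 10000, 1.39%, 20.1% and 15.7% unthinned, and 6.21% and 3.68% with at least 2 UMIs. Without cells holding any leucocyte marker they were 7.54% for Cxcl9 in the PBS library and 55.9% for Cxcl9 and 19.0% for Cxcl10 in the cGAMP library, and without rare markers 56.4% and 23.1%. All 3 together were found in 12.1% of cGAMP cells at 10000 UMIs, 32.2% unthinned, 3.62% with at least 2 UMIs and 5.69% without leucocyte markers. The genes at least 2-fold higher numbered 103 at 20 CPM and 307 at 1 CPM, and those lower 78 and 321.

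Within EC classes 31 of 48 ratios moved beyond their counting interval under other clusterings and none changed sign. The run with all 2500 variable genes did not leave out the chemokine genes. It gave a log2 ratio of 9.33 for Ccl5 in arterial-like ECs, against 5.49, and 2.75 for Cxcl10 in tip-like ECs, against 0.45. No paired analysis was possible because each condition has 1 library.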
